A study of Homo sapiens with 18 samples.

Results

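The genes described here are the replication-dependent histone genes, mostly clustered genes that supply histone protein during DNA replication. They were taken by name: every probe set whose only gene symbol was H1-1 to H1-6, or began with H2AC, H2BC, H3C or H4C and a number, with the older HIST symbols counted as well. The rule found 58 genes of the 18417 genes with a probe set of their own, and no member had a further probe set with 1 symbol. They were 6 linker histone genes (H1), 14 H2A, 17 H2B, 8 H3 and 13 H4 genes. RefSeq lists 57 as protein-coding, and 1, H2BC19P, as a pseudogene. By RefSeq, 49 lie on chromosome 6, 8 on chromosome 1 and 1, H4C16, on chromosome 12. H4C14 and H4C15 had the same value in every array, so the 58 members carry at most 57 separate measurements. Both are included in every count of members and of H4 genes.

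RNA was measured in HUVEC, endothelial cells of the human umbilical vein, on 18 whole-transcript arrays in 6 groups of 3. One group was left untreated and one received beads with IgG and no vesicles. The other 4 groups were co-cultured for 3 days with extracellular vesicles (EVs), membrane particles that cells release, caught on beads through CD63 or through MHC1. Jurkat, a line of human leukaemic T cells, gave the vesicles of 2 groups, and JinB8, a mutant of Jurkat without the surface receptor CD47, those of the other 2. All HUVEC carried the same normal genotype label, and no time is stated for the untreated cells. The labels say that concentrated medium was pooled before the vesicles were purified and name no separate cultures behind the arrays, so a p-value here reflects only the spread between these arrays, which may be technical. In the free text of 5 of the 6 JinB8 arrays the JinB stem carries another number than 8, and the bracketed sample names, which say JinB8, were followed.

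Nucleosomes are built from the core histones H2A, H2B, H3 and H4, and H1 binds the linker DNA between them. Replication-dependent histone genes mostly lie in clusters and mostly lack introns, and they are switched on when cells enter S phase, through the coactivator NPAT. Their messages typically end in a stem-loop held by SLBP instead of a poly(A) tail and are degraded when DNA synthesis stops. Most family members encode the same or nearly the same protein, and H1-6, H2AC1 and H2BC1 are forms known from the testis. Whether probe sets of such similar genes also pick up each other's RNA was not tested. Counts of members in a family are therefore not counts of independent genes. In cell mixtures such as these, fewer cells in S phase and less RNA per cell cannot be told apart.

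The DNA before the start of the members was searched because many of them share promoter elements, and some H2A and H2B genes share a promoter. RefSeq promoter windows (GRCh38.p14) were at hand for 52 of the 58 members, and the 250 bases before each start were searched on both strands for CCAAT, for TATAAA and for the octamer ATTTGCAT. CCAAT was found in 44 of 52 windows (84.6%), against 33% of the 27305 windows of all genes. It was in every H1, H2A, H2B and H3 window and in 3 of 11 H4 windows. TATAAA was found in 34 of 52 (65.4%), against 11.1% of all. The octamer was found in 10 of 13 H2A windows and 13 of 16 H2B windows, in none of the 23 others, and in 1.66% of all windows. Windows of H2A and H2B genes that share a promoter overlap, so the same motif copy can count for both genes. The 52 windows are thus not all separate stretches of DNA. The windows of 6 members to which the results below turn are printed 5′ to 3′, with these motifs on either strand in capitals. TATAAA can overlap its own reverse complement, as it does in H3C7.
H2AC20: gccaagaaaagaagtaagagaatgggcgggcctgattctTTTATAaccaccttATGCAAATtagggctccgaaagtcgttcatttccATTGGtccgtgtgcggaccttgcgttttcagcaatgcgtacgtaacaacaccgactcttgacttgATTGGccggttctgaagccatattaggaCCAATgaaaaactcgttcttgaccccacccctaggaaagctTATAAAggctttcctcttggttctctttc
H2AC8: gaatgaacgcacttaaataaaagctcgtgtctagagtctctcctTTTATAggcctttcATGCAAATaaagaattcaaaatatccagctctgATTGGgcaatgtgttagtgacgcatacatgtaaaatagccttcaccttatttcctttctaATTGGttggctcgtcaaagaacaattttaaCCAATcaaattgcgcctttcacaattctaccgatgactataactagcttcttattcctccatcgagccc
H2BC9: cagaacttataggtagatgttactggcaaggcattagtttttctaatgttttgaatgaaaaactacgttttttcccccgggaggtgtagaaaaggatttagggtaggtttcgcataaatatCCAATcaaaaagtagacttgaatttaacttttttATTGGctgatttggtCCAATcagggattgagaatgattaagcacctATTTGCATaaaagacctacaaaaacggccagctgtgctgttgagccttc
H3C7: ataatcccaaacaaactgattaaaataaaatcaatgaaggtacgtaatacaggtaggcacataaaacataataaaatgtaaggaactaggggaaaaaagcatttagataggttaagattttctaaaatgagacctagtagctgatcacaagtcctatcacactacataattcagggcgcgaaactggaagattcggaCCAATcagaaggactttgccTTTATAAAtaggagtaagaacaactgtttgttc
H4C5: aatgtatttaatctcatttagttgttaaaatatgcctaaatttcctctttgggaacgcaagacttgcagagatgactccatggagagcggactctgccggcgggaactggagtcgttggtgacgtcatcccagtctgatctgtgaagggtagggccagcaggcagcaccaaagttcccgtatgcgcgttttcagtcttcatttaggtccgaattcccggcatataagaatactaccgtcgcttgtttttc
H4C14: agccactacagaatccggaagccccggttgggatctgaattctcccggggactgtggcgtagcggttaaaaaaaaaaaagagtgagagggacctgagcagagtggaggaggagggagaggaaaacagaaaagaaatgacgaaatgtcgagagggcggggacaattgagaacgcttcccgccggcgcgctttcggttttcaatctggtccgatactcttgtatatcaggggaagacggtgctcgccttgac
They lie at chr1:149886668-149886917 (plus strand, H2AC20), chr6:26216671-26216920 (plus, H2AC8), chr6:26251364-26251613 (plus, H2BC9), chr6:26250636-26250885 (minus, H3C7), chr6:26204360-26204609 (plus, H4C5) and chr1:149832407-149832656 (plus, H4C14), all just upstream of the gene. The H2AC20 window is shared with the oppositely directed H2BC21, and the H2AC8 window with H2BC8. The window of H4C15 at chr1:149861160-149861409 (minus strand) has the same letters as that of H4C14. The H4C5 and H4C14 windows hold none of the 3 motifs.

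Agreement between arrays was looked at before any gene was compared, and the number of arrays, 3 a group, limits the precision. Untreated replicate 3 and bead replicate 3 stood apart: their values had an SD of 1.56 and 1.57 over the probe sets, and their median correlation with the other arrays was 0.649 and 0.636. The other 16 arrays had SDs between 2.01 and 2.25 and median correlations between 0.947 and 0.992, with the lowest of both in Jurkat MHC1 replicate 1. In the 16 arrays the 12 endothelial marker genes had group means between 9.33 and 9.47 (log2), and the 11 T-cell markers between 4.19 and 4.41, with 6 of these 11 among the lowest 25% of genes. In untreated replicate 3 and bead replicate 3 the endothelial markers averaged only 7.20 and 6.30, and the T-cell markers 5.48 and 5.30. Counts of members called are therefore given for all 18 arrays, which is the main fit, and for the 16 arrays without those 2, and other values are for 16 arrays unless stated. Differences between vesicle groups are the same in both, since neither array is in those groups, and only their SEs differ. The limma model had a mean for each group and covered all 18417 genes, and a gene was called at a Benjamini-Hochberg adjusted p under 0.05. Differences are in log2 units with the SE of that model.

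The signals that follow describe probe sets, which differ in how brightly they hybridise, and say nothing of which member was more abundant. Over the 18 arrays, 15 of the 58 members had a mean among the lowest 25% of genes, with no detection call at hand, and 20 lay above the median gene. H1 ranged from 3.42 for H1-6 to 8.42 for H1-4 (mean log2 signal), H2A from 3.24 for H2AC14 to 8.59 for H2AC20, and H2B from 3.46 for H2BC11 to 7.96 for H2BC12. H3 ranged from 3.98 for H3C10 to 7.79 for H3C11, and H4 from 3.43 for H4C16 to 7.70 for H4C3. The pseudogene H2BC19P averaged 4.62 and was at 7.28 in bead replicate 3, the array that stood apart, against 3.76 to 5.03 in the other arrays. Between the highest and the lowest of the 6 group means, in 16 arrays, the median member spanned 0.45, and the median gene 0.37. The narrowest span was 0.08 for H1-3 and the widest 1.42 for H2BC14, and 3 members spanned more than 1.

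**Figure D1:**
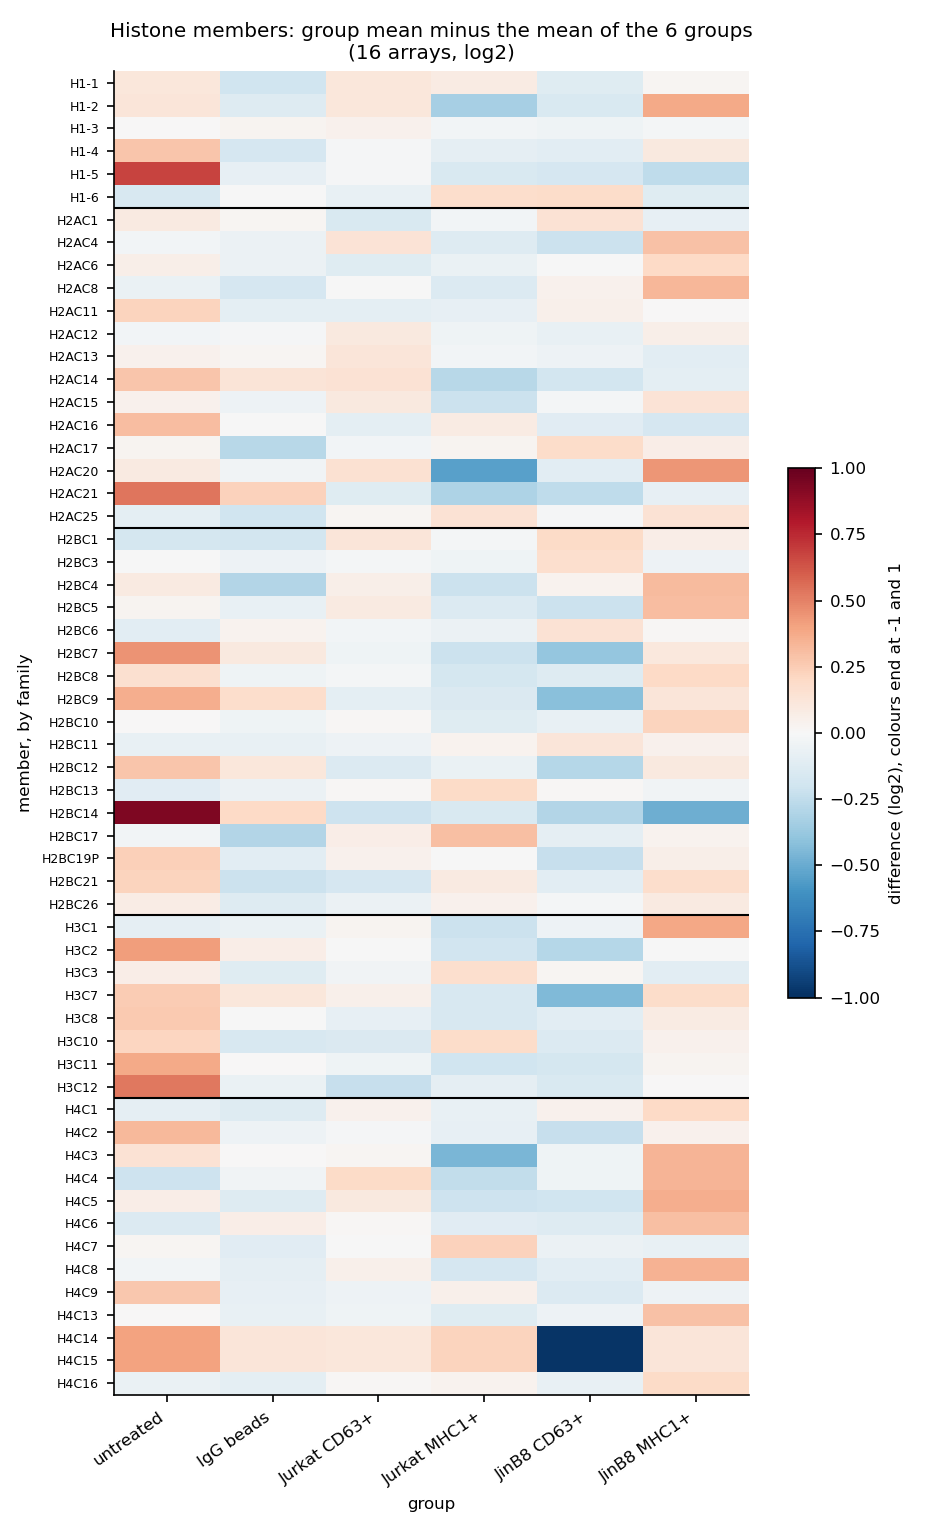
Group means of the 58 members in 16 arrays, each row centred on the mean of its 6 groups (log2, colour scale from -1 to 1), with the families separated by lines. H4C14 and H4C15, which share their values, are lowest in JinB8 CD63+, most H4 rows are highest in JinB8 MHC1+, and H2BC14 and H1-5 are highest in untreated cells.

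Across all 6 groups the members showed no difference that passed the test. In the F test on 18 arrays 0 of 58 members were called, as were 0.0109% of all genes, and 3 members against 1.09% of genes had an unadjusted p under 0.05. In 16 arrays 0 members were called against 0.233% of genes, and 15 members, or 25.9%, had an unadjusted p under 0.05 against 8.07% of genes. The smallest p in 16 arrays was that of H2AC21, an H2A gene of the chromosome 1 cluster (unadjusted p = 0.00244, adjusted p = 0.27 by limma). H4C14, H3C7, H4C3, H2BC9, H1-5, H2BC14, H2BC7 and H4C2 followed it. Of the 4 vesicle groups in 16 arrays, JinB8 MHC1 had the highest mean in 33 members (56.9%), against 29.9% of all genes, and the lowest in 9 (15.5%), against 40.1%. JinB8 CD63 and Jurkat MHC1 each had the lowest mean in 20 members. These counts describe group means and were not tested.

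The first question was whether vesicles from CD47-deficient cells leave other histone levels than vesicles from Jurkat cells when caught through MHC1. H4C3, which encodes the core histone H4, was at 8.32, 8.36 and 7.91 with JinB8 MHC1+ vesicles and at 7.12, 7.64 and 7.46 with Jurkat MHC1+ vesicles. All 3 JinB8 values lay above all 3 Jurkat values. The difference was 0.80 ± 0.16 (SE) in 16 arrays, with an adjusted p of 0.0386 by limma. It was the only member called there, 1 of 58 against 0.386% of genes. In the main fit on 18 arrays the difference was the same with an SE of 0.40 and an adjusted p of 0.927, and 0 of 58 members were called against 0.0326% of genes. The 2 control arrays that stood apart were at 6.62 and 6.37, below every other array for H4C3. A fit on the vesicle groups alone, which holds no control array, gave the same difference with an SE of 0.16. Its adjusted p was 0.0746 by limma, so H4C3 was not called there. In a check chosen after seeing the data, each of the 16 arrays was left out in turn, and H4C3 was called in 7 of the 16 fits, with adjusted p between 0.0108 and 0.273. Without Jurkat MHC1 replicate 1 the difference was 0.65 (adjusted p = 0.109), and with each array's SD as a covariate it was 0.68 (adjusted p = 0.212, an alternative chosen after seeing the data).

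Other members leaned the same way without being called. In 18 arrays 6 members had an unadjusted p under 0.05, all with positive differences, against 3.43% of genes. In 16 arrays there were 18, or 31%, against 29.6% of genes, so that their number was near the background. Of these 18, 16 were positive, whereas 3141 of the 5443 genes at that p were. Without Jurkat MHC1 replicate 1, 8 members were left at that p, against 12.2% of genes. In a further check chosen after seeing the data, leaving Jurkat MHC1 replicate 3 out of the 16 arrays called 11 members, 9 of them higher with JinB8 vesicles, but 30.8% of all genes were called as well. In the 16 arrays the members' median difference was 0.14, with 41 of 58 positive, against a median of -0.06 over all genes, of which 57.1% were negative. Of the families, H4 had a median of 0.27 and 9 of 13 positive differences, and H1 a median of -0.03. H4C5 was at 7.25, 7.38 and 6.98 with JinB8 MHC1+ vesicles and at 6.39, 6.53 and 6.97 with Jurkat MHC1+ vesicles, a difference of 0.57 ± 0.17 (16 arrays, adjusted p = 0.0926 by limma). Its highest Jurkat value nearly reached its lowest JinB8 value.

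H2AC20, an H2A gene of the chromosome 1 cluster, shows how much 1 array can weigh. It was at 9.44, 9.51 and 9.18 with JinB8 MHC1+ vesicles and at 7.45, 8.95 and 8.77 with Jurkat MHC1+ vesicles. The groups did not overlap, and the difference was 0.99 ± 0.27 (16 arrays, adjusted p = 0.088), but Jurkat MHC1 replicate 1 lay more than 1 log2 unit below the other 2 of its group. Without that array the difference was 0.52 ± 0.14 (adjusted p = 0.178 by limma). H2AC8, another H2A gene, was at 4.53, 4.24 and 3.95 against 3.65, 3.82 and 3.84, a difference of 0.47 ± 0.14 (adjusted p = 0.0935). The mean level of H2AC8 lay in the lowest 25% of genes. H1-2, a linker histone, was at 5.94, 6.09 and 6.10 against 5.07, 5.27 and 5.66, which do not overlap either. In 18 arrays its difference was 0.71 ± 0.28 (adjusted p = 0.927 by limma).

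**Figure D2:**
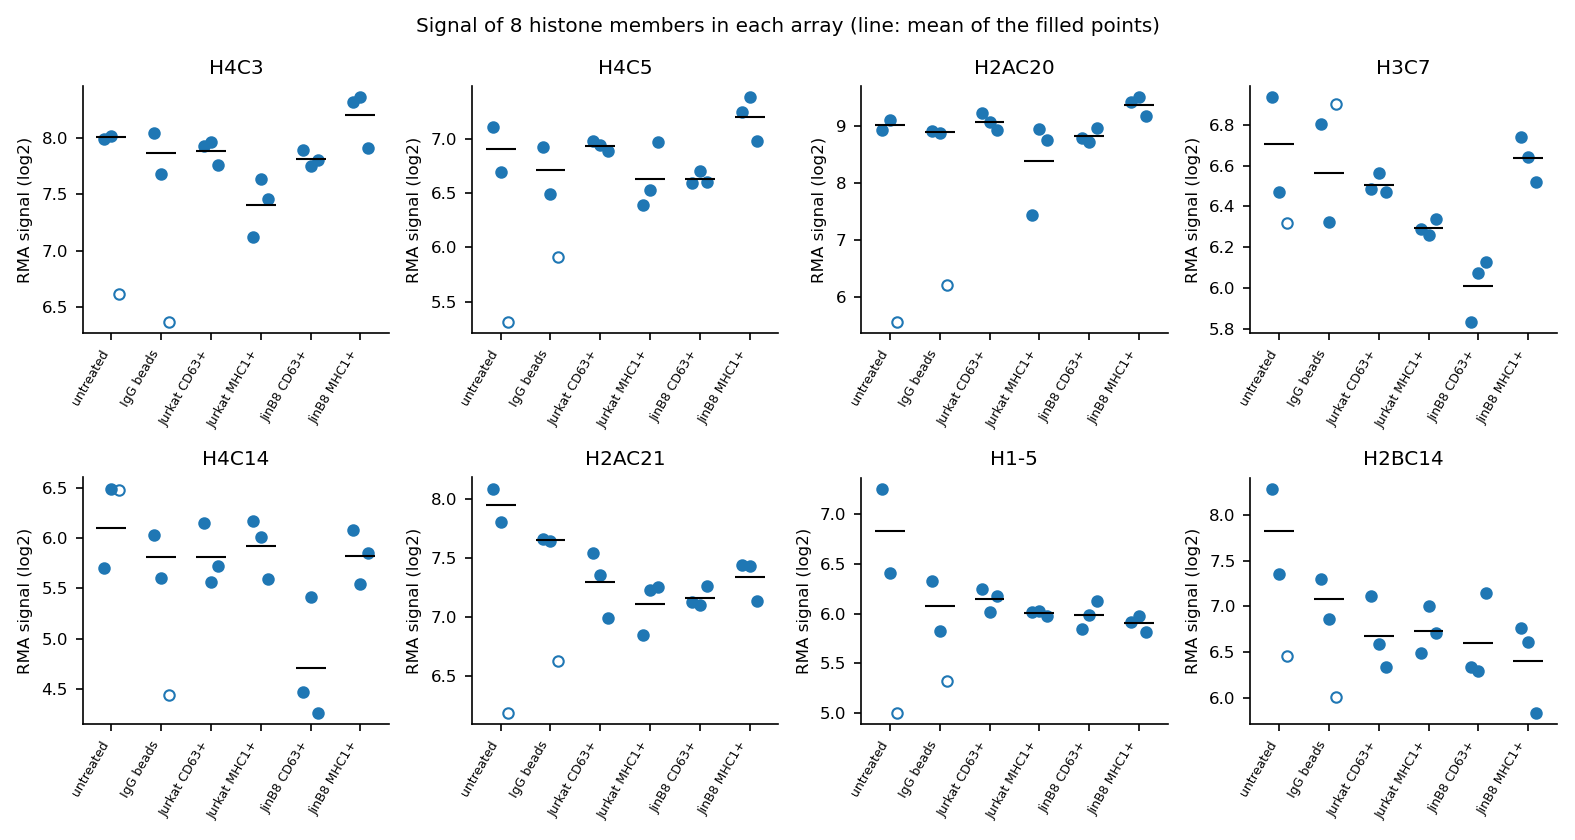
RMA signal (log2) of 8 members in each of the 18 arrays, by group; open circles are untreated replicate 3 and bead replicate 3, and the line is the mean of the filled circles. H4C3 is higher in all 3 JinB8 MHC1+ arrays than in any Jurkat MHC1+ array, H4C14 and H3C7 are lowest in JinB8 CD63+, and H1-5 and H2BC14 are highest in untreated replicate 1.

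The next comparison was between the markers used to catch the vesicles. With JinB8 vesicles, 0 of 58 members were called in CD63 minus MHC1, in 18 arrays (0.00543% of genes called) and in 16 (0.185%). In 15 arrays, also without Jurkat MHC1 replicate 1, 4 members were called against 1.93% of genes. These were H2AC20 (-0.55, adjusted p = 0.0394 by limma), H3C7 (-0.62, adjusted p = 0.0427) and the identical H4C14 and H4C15 (-1.11, adjusted p = 0.04999, at the threshold). That array belongs to neither group of this comparison and acts only through the shared estimate of the spread. Without JinB8 CD63 replicate 2 instead, H3C7, H4C14 and H4C15 were called, against 3.88% of genes. In 18 arrays 6 members had an unadjusted p under 0.05, all lower with CD63+ vesicles, against 1.7% of genes. In 16 arrays there were 14, or 24.1%, against 16.6% of genes, and 13 of the 14 were lower. The median member differed by -0.20, with 43 of 58 negative, against 0.03 over all genes. H4 contributed 8 of the 14, had a median of -0.38 and was negative in 12 of 13 members.

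H3C7, a gene for the core histone H3, was at 5.83, 6.07 and 6.13 with JinB8 CD63+ vesicles and at 6.74, 6.64 and 6.52 with JinB8 MHC1+ vesicles. The groups were well apart, with a difference of -0.62 ± 0.15 (16 arrays, adjusted p = 0.12 by limma). The JinB8 CD63 values were also below every other array of the series, of which the next was Jurkat MHC1 replicate 2 at 6.26. H2BC9, a neighbouring H2B gene, was at 6.41, 6.58 and 6.72 against 7.07, 7.22 and 7.03, and the difference was -0.54 ± 0.16 (adjusted p = 0.206). H4C14 was at 4.47, 5.41 and 4.26 against 6.08, 5.54 and 5.85, a difference of -1.11 ± 0.29 (adjusted p = 0.157). Its JinB8 CD63 values were the lowest of all vesicle arrays. A further probe set listed for both H4C15 and H4C14, which is no member because it has 2 symbols, gave a smaller difference of -0.36 ± 0.25 (adjusted p = 0.436 over all 33297 probe sets), so the size of the H4C14 difference depends on the probe set. H4C6 differed by -0.43 ± 0.12 (adjusted p = 0.192).

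With Jurkat vesicles the members did not lean this way. In CD63 minus MHC1, 0 of 58 members were called in 18 arrays (0% of genes) and in 16 (0.00543%). At an unadjusted p under 0.05 there were 0 members in 18 arrays, against 0.44% of genes, and 3 in 16 arrays, against 11%. The median member differed by 0.07, against -0.02 over all genes. H4C3 was at 7.92, 7.96 and 7.76 with CD63+ and at 7.12, 7.64 and 7.46 with MHC1+ vesicles, without overlap, and the difference was 0.48 ± 0.16 (16 arrays, adjusted p = 0.415 by limma). H2AC14 differed by 0.43 ± 0.16 (adjusted p = 0.415), at a level near the floor of the array.

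Whether the capture difference differed between the lines was tested as an interaction, JinB8 minus Jurkat of CD63 minus MHC1. 0 of 58 members were called in 18 arrays (0% of genes) and in 16 (0.0163%). An unadjusted p under 0.05 was found for 4 members in 18 arrays against 2.44% of genes, and 18 in 16 arrays, or 31%, against 28.7%. Of the 18, 17 were negative, against 3189 of 5290 genes. The members' median was -0.28, with 42 of 58 negative, against 0.06 over all genes. H3C7 had -0.84 ± 0.21, H4C3 -0.86 ± 0.22 and H4C5 -0.87 ± 0.24, each with an adjusted p of 0.138 by limma in 16 arrays. H2AC20 had -1.24 ± 0.39 and H2BC5 -0.76 ± 0.25, with the same adjusted p, and H2AC20 had -0.77 ± 0.18 without Jurkat MHC1 replicate 1 (adjusted p = 0.173). Calls in the interaction depended on single arrays. Without Jurkat MHC1 replicate 3, 12 members were called, 11 of them negative, against 25.4% of genes, and without JinB8 CD63 replicate 2, 6 were called, all negative, against 9.7%. H4 again had the lowest median, -0.56, with 11 of 13 negative.

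Between the lines with CD63+ vesicles, JinB8 minus Jurkat, 0 of 58 members were called in 18 and in 16 arrays (0% of genes in both). An unadjusted p under 0.05 was found for 3 members, all negative, in 18 arrays (0.255% of genes) and in 16 (4.02%). They were H3C7 and the pair H4C14 and H4C15 in both. H4C14 was at 6.15, 5.56 and 5.73 with Jurkat CD63+ vesicles, above the JinB8 CD63 values given before, with a difference of -1.10 ± 0.29 (16 arrays, adjusted p = 0.874 by limma). H3C7 was at 6.49, 6.56 and 6.47 with Jurkat CD63+ vesicles and differed by -0.50 ± 0.15 (adjusted p = 0.874). All 13 H4 differences were negative, with a median of -0.14, against 53.3% of all genes. The comparisons among the vesicle groups, with the interaction, are built from the same 4 groups of arrays and are not independent.

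**Figure D3:**
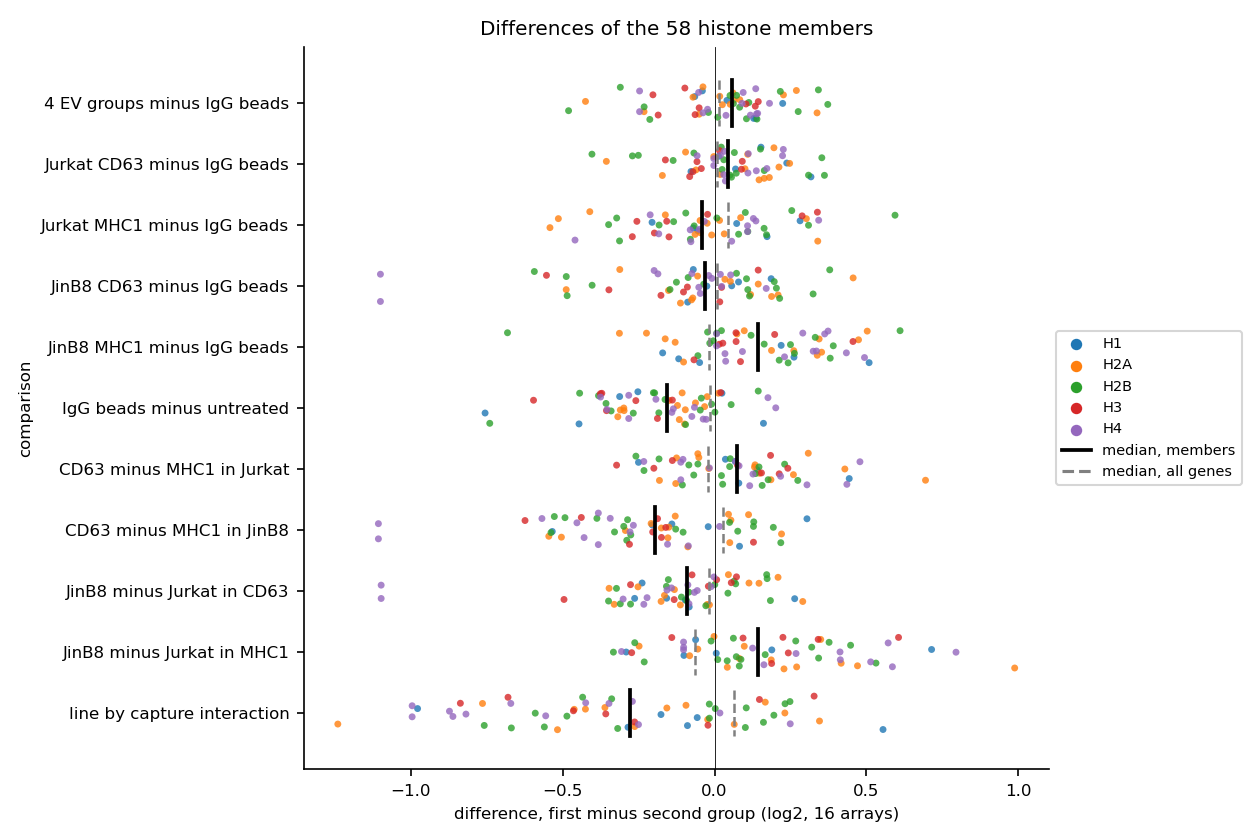
Differences of the 58 members in 11 comparisons (log2, 16 arrays), 1 point per member, coloured by family; the solid line is the members' median and the dashed line that of all genes. The members' median is -0.28 in the interaction, -0.20 in CD63 minus MHC1 in JinB8, -0.16 in beads minus untreated and 0.14 in JinB8 minus Jurkat in MHC1.

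Vesicles were next set against beads with IgG, the control for the beads themselves. The mean of the 4 vesicle groups minus beads called 0 of 58 members in 18 arrays (0.00543% of genes) and in 16 (0.0434%). At an unadjusted p under 0.05 there was 1 member in 18 arrays, H2BC9 at -0.42 ± 0.18 (adjusted p = 0.525 by limma), against 3.83% of genes. In 16 arrays there were 3, against 3.21%, and the members' median was 0.06. H2AC21 was at 7.66, 7.64 and, in the array that stood apart, 6.62 with beads. In the 12 vesicle arrays it was at 6.84 to 7.54, all below the first 2 bead arrays. The difference was -0.42 ± 0.15 in 16 arrays (adjusted p = 0.999). In 18 arrays it was -0.08, and it was 0.03 on centring by array medians, which was run on 18 arrays only. H2AC17 differed by 0.34 ± 0.14 (adjusted p = 0.999) in the same 16 arrays, at a level in the lowest 25% of genes.

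Each vesicle group was also compared with beads, and all 4 comparisons share the bead arrays. Jurkat CD63 minus beads called 0 members in 18 and in 16 arrays (0.00543% of genes in both), with 0 members at an unadjusted p under 0.05 in either, against 1.06% and 1.55% of genes. H2BC1 and H1-1 had the smallest p in 16 arrays, at 0.31 ± 0.15 and 0.32 ± 0.16. Jurkat MHC1 minus beads called 0 members (0% of genes in both fits), with 0 members at that p in 18 arrays (1.19% of genes) and 5 in 16 (9.33%). H2AC21 had -0.54 ± 0.18 and H4C3 -0.46 ± 0.17 (adjusted p = 0.467 by limma in 16 arrays). In 18 arrays the H4C3 difference was positive, since bead replicate 3 was low.

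JinB8 CD63 minus beads called 0 members in 18 arrays (0.00543% of genes) and in 16 (0.0923%). There were 2 members at an unadjusted p under 0.05 in 18 arrays (1.48% of genes), H3C7 and H2BC9, and 8 in 16 arrays (6.7%), of which 6 were negative. H3C7 differed by -0.67 ± 0.19 in 18 arrays and by -0.55 ± 0.16 in 16 (adjusted p = 0.865 and 0.47 by limma). JinB8 MHC1 minus beads called 0 members in 18 arrays (0.0434% of genes) and in 16 (0.212%). There were 4 members at that p in 18 arrays (5.04% of genes) and 5 in 16 (5.18%), all positive. H2AC8, a faint probe set, differed by 0.57 ± 0.17 in 18 arrays and by 0.50 ± 0.16 in 16 (adjusted p = 0.462 and 0.541). H4C5 differed by 0.49 ± 0.19 in 16 arrays, with bead values of 6.92 and 6.50 (adjusted p = 0.749). In 16 arrays all 13 H4 genes had positive differences, with a median of 0.29, against 54.2% negative over all genes. In 18 arrays 11 of the 13 were positive, with a median of 0.28.

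Beads with IgG were compared with untreated cells to see what the beads did alone. Members were mostly lower with beads, though 0 of 58 were called in 18 or in 16 arrays (0% of genes in both). At an unadjusted p under 0.05 there were 8 members in 18 arrays, or 13.8%, against 1.11% of genes, and 3 in 16 arrays, or 5.17%, against 1.02%, all negative. The median member differed by -0.16 in 16 arrays, with 49 of 58 negative, against -0.01 and 53.3% over all genes. In 18 arrays the median was -0.18 with 40 negative. With 16 arrays the untreated cells had the highest of the 6 group means in 22 members (37.9%), against 10.4% of genes, and beads in 0, against 13.1%. In 16 arrays all 8 members on chromosome 1, 13 of 14 H2A and 14 of 17 H2B genes were negative. In 18 arrays these counts were 6, 11 and 7, and the H2B median was 0.05.

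The larger of these differences rest on few arrays. When untreated replicate 1 was left out of the 16 arrays, 37 members were negative, with a median of -0.12, and 0 had an unadjusted p under 0.05, against 0.424% of genes. H1-5, a linker histone, was at 7.25, 6.41 and 5.00 in untreated cells and at 6.33, 5.82 and 5.32 with beads. In the 12 vesicle arrays it was at 5.82 to 6.24, so that untreated replicate 1 was alone above 7. The difference was -0.76 ± 0.22 in 16 arrays (adjusted p = 1.00 by limma), and it turned to 0.12 in the remaining 17 arrays when untreated replicate 1 was left out. Those 17 arrays hold both controls that stood apart, at 5.00 and 5.32. With these left out as well, untreated replicate 2, at 6.41, was still above the bead mean of 6.08. H2BC14, an H2B gene, was at 8.29, 7.35 and 6.46 in untreated cells and at 7.30, 6.86 and 6.01 with beads. Untreated replicate 1 was again the highest of all arrays, and the difference was -0.74 ± 0.38 in 16 arrays. H3C12 was at 5.08, 4.62 and 4.38 against 4.29, 4.22 and 3.89, without overlap, a difference of -0.60 ± 0.21 in 16 arrays and of -0.56 ± 0.22 in 18 (adjusted p = 1.00 in both). H4C2 was at 7.97, 7.82 and 7.54 against 7.53, 7.51 and 6.96, barely without overlap, a difference of -0.38 ± 0.15 in 16 arrays. H3C10, a faint probe set, differed by -0.68 ± 0.28 in 18 arrays, with untreated replicate 3 at 5.11.

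H2A and H2B genes in head-to-head pairs share the DNA between their starts, so their differences were set side by side. Among the 52 members with a promoter window there were 9 such pairs, with 214 to 247 bases between the RefSeq starts. The octamer was found in 7. Members without a window, such as H2AC12 beside H2BC12, were not searched for pairs. In JinB8 minus Jurkat in MHC1 (16 arrays) both genes had the same sign in 5 of the 9 pairs, and in CD63 minus MHC1 in JinB8 in 7. In beads minus untreated they did in 7, and in the interaction in 5. H2AC8 and H2BC8, whose shared DNA is printed above, had 0.47 and 0.38 in JinB8 minus Jurkat in MHC1, and H2AC6 and H2BC4 had 0.27 and 0.53. H2AC20 and H2BC21, printed above as well, had 0.99 and 0.08. H2AC14 and H2BC14 had 0.19 and -0.33, opposite signs on either side of 1 promoter. Of all 58 members, 41 were positive in JinB8 minus Jurkat in MHC1, and 43 were negative in CD63 minus MHC1 in JinB8. In the interaction 42 were negative, and in beads minus untreated 49. Any pair of members would thus often share a sign, and no test was made of the counts of pairs.

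Genes that make, process or carry histones were counted from lists chosen along with the members. Of 11 regulators of histone transcription, 19 genes of histone mRNA processing, translation and decay, 19 chaperones and import factors and 12 replication-independent variants, 0 were called in any of the 12 comparisons in 18 or 16 arrays. The variant list includes H2BC26, which is a member, and SLBP and CCNE2 are also in the S phase list. NPAT, the coactivator at histone promoters, differed by 0.33 ± 0.26 in JinB8 minus Jurkat in MHC1, and SLBP, the stem-loop binding protein, by 0.03 ± 0.14 (16 arrays). CCNE2, a cyclin of S phase entry, differed by 0.75 ± 0.26 (adjusted p = 0.107 by limma). ERI1, an exonuclease that trims histone messages, differed by 0.36 ± 0.15. H2AZ1, a variant made throughout the cell cycle, differed by 1.08 ± 0.28 (adjusted p = 0.085). The variant H2AX went the other way, at 7.38 with JinB8 MHC1+ vesicles against 7.68 with Jurkat MHC1+ vesicles. At an unadjusted p under 0.05, 10 of the 19 processing genes stood out in that comparison in 16 arrays, where 29.6% of all genes did.

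Genes of the cell cycle were counted in the same way. Of 21 S phase genes 0 were called in any comparison. PCNA, the sliding clamp of replication, differed by 0.68 ± 0.20 in JinB8 minus Jurkat in MHC1 (16 arrays, adjusted p = 0.0926 by limma). Not all of the list went this way. CDT1 and MCM5 were at 5.09 and 6.42 with JinB8 MHC1+ vesicles, against 5.43 and 6.62 with Jurkat MHC1+ vesicles. Of 20 genes of G2 and mitosis, 2 were called in the 4 vesicle groups minus beads in 16 arrays (0.0434% of genes), and none in any comparison in 18. There, the spindle gene ASPM fell by 1.15 and the spindle checkpoint kinase BUB1B fell by 1.04 (limma, adjusted p = 0.0268 and 0.016). With MKI67, a proliferation marker, they were also called as lower in JinB8 CD63 (0.0923% of genes) and in JinB8 MHC1 minus beads (0.212%). In the F test on 16 arrays ASPM, BUB1B, MKI67 and CENPF, a kinetochore gene, were called, against 0.233% of genes. In 16 arrays the list's mean was 6.40 in untreated cells, 6.47 with beads, 6.11 in Jurkat CD63, 5.64 in Jurkat MHC1, 5.62 in JinB8 CD63 and 5.78 in JinB8 MHC1. The S phase list had 6.17, 6.27, 6.27, 5.94, 6.03 and 6.13 in the same order. In 18 arrays the 2 controls were lower, with 5.94 and 6.05 for the mitotic list, both below Jurkat CD63, and 5.97 and 5.98 for the S phase list. The part of cell-cycle state in the histone values was not tested.

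**Figure D4:**
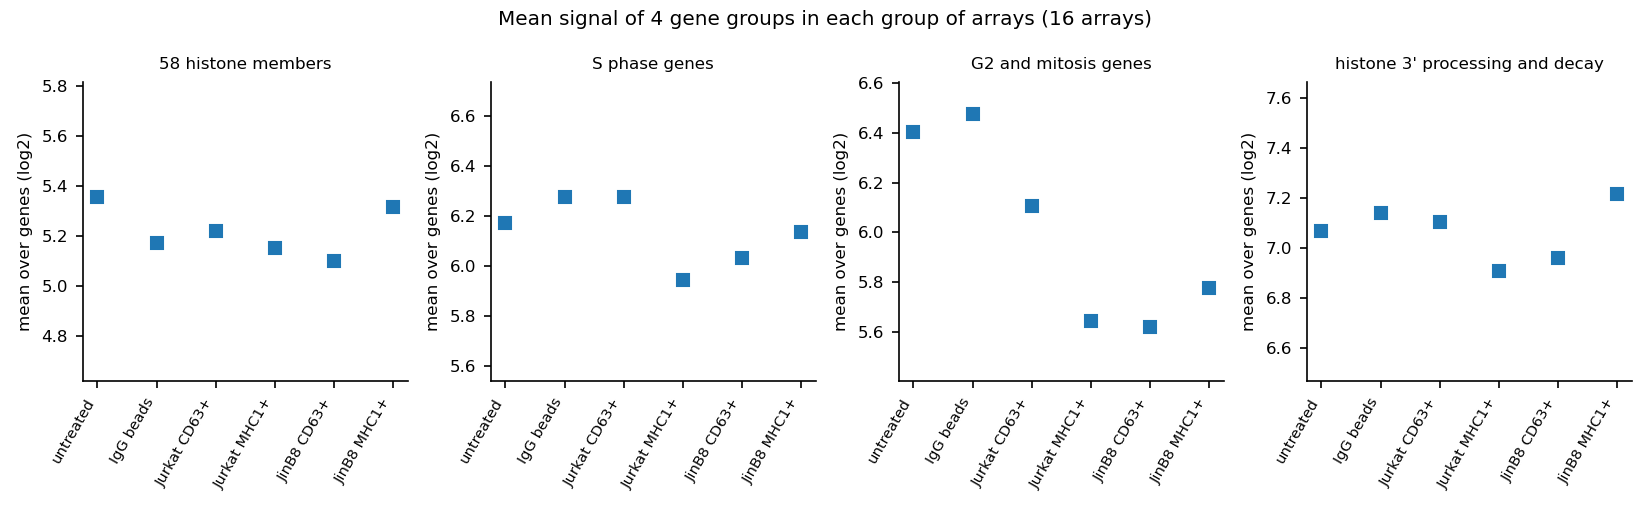
Mean signal (log2, 16 arrays) of the 58 histone members and of 3 gene lists in each group, on axes of equal span. The mitotic list is at 6.40 and 6.47 in the controls and at 5.62 to 6.11 in the vesicle groups. Both this list and the histone members are lowest in JinB8 CD63+, but the list is almost as low in Jurkat MHC1+ (5.64). In JinB8 MHC1+ the list is at 5.78, below both controls. The histone means of those arrays are 5.21 to 5.38, against 5.29 to 5.42 in untreated and 5.07 to 5.27 in bead arrays.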

How the data were processed

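RNA of 18 HUVEC samples was labelled from 300 ng each, per the labels, and hybridised to Affymetrix whole-transcript arrays. The labels and the series design name different RNA kits. Per the submitters' processing notes, the authors used RMA in Affymetrix Expression Console; their versions are not given in these sources. The values deposited by the authors were taken as log2, a scale read from their range.

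Of 33297 probe sets, 12083 had no symbol, 1754 had several and 19460 had 1 in the platform annotation; no filter on level was used. The probe set with the highest mean over 18 arrays was kept per symbol, which left 18417 genes. limma 3.58.1 in R 4.3.3 (lmFit, eBayes) was fitted with 1 mean per group, two-sided, after it was tested on simulated data. Adjustment was by Benjamini and Hochberg, over all genes within each comparison. Members and lists were chosen with earlier results of these data known. The list genes given with values are examples and were not picked by a rule fixed beforehand. Named with values were the members with the smallest p in the F test, those called, or else the 2 with the smallest p, in each comparison, the highest and lowest of each family, and pseudogenes; H2AC20, H4C5, H4C6, H1-2, H2BC5, H2BC9 and the paired genes were added after their values were seen. No batch or date was used; serial numbers run together within groups, and batch and group cannot be told apart. Alternatives were other array sets, normalizations, filters and controls, and leaving out each array. Python 3.11.15 with numpy 2.4.6, matplotlib 3.10.9 and pandas 2.3.3 made the tables and figures. Promoter sequences are RefSeq's (GRCh38.p14).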

Additional observations from a re-analysis of the deposited data

How the results depend on the processing

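Counts of members called were recomputed in 332 comparisons under other settings, and 330 stayed at 0. Among them were all 216 that left out a single array of the 18. Each of these kept untreated replicate 3, bead replicate 3 or both in the shared estimate of the spread, so their counts of 0 say little. Fits that left an array out of the 16 are not among the 332. The exceptions were JinB8 minus Jurkat in MHC1 in 16 arrays, with 1 call, and CD63 minus MHC1 in JinB8 in 15 arrays, with 4. Leaving each of the 16 arrays out gave 0 to 11 calls in the first of these, 0 to 4 in the second, 0 to 12 in the interaction and 0 in the other 9 comparisons. Of 35 named differences, 6 reversed. With untreated cells as the control, H2AC17 in the vesicle groups stood at -0.15 and H1-1 in Jurkat CD63 at -0.23 in 18 arrays, but at 0.0388 and 0.0051 in 16. H2AC21 in the vesicle groups minus beads was -0.08 in 18 arrays and went to 0.0326 on median centring of these. It spanned -0.42 to 0.092 on leaving out each of the 18 arrays. H1-5 in beads minus untreated spanned -1.01 to 0.12 on leaving out each of the 18 arrays. H2BC1 in Jurkat CD63 minus beads was -0.0003 in 18 arrays, 0.31 in 16 and in 15 arrays, 0.23 after quantile normalization, 0.13 on median centring, 0.13 against untreated cells (0.30 in 16 arrays), 0.30 with array SD as covariate and -0.16 to 0.31 on leaving out each array. H4C3 in Jurkat MHC1 minus beads was -0.46 in 16 arrays, -0.32 in 15, -0.0194 after quantile normalization, -0.14 against untreated cells (-0.60 in 16 arrays), -0.38 with that covariate and -0.46 to 0.38 on leaving out each array. The cause was not tested. Of 307 medians of the members, 18 moved by more than the spread of the member mean between arrays of a group (SD 0.10). The covariate and the untreated control in 16 arrays were chosen after seeing the data. Array weights did not converge and were not run. No paired analysis was possible because the labels carry no replicate numbers shared between groups.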

Other observations

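Probe sets listed for several histone genes were left out of the members, and their values are given here without a gene of their own. There were 20 of them, with 17 distinct sets of values, and their fit over all 33297 probe sets was added after seeing the data. None was called in any comparison in 18 or 16 arrays by limma, and 0 to 6 of the 20 had an unadjusted p under 0.05. A probe set for H2AC18, H2AC19, H2AC20 and H2AC21 was at 9.65 ± 0.21 in untreated cells, 9.13 ± 0.10 with beads and 9.56 ± 0.15 with JinB8 MHC1+ vesicles (SD, n = 2, 2 and 3), and between 9.04 and 9.14 in the other 3 vesicle groups. A probe set for H4C11 and H4C12 was at 9.76 ± 0.12, 9.17 ± 0.06 and 9.67 ± 0.15 in the same groups, and at 9.11 to 9.28 in the other 3. Both were thus high in the same groups in which the members had their highest mean most often, but the first also covers the members H2AC20 and H2AC21. Not all of the 20 went this way. A probe set for H3C13, H3C14 and H3C15 was at 7.75 in untreated cells and lowest with JinB8 MHC1+ vesicles, at 7.38. The probe set for H2BC18 and FCGR1BP was also lowest there, at 3.97. That for H2BC19P, H2BC20P and H2BC21 was highest with Jurkat MHC1+ vesicles, at 10.30, with untreated cells at nearly the same level, 10.29. In beads minus untreated the 20 had a median of -0.23 in 16 arrays, and 5 had an unadjusted p under 0.05, all negative.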
